A study of Mus musculus with 6 samples.

Results

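The 10 genes described here encode the interleukin 1 and interleukin 18 cytokines, their soluble antagonists, and the core machinery of the inflammasome, taken by symbol (Il1a, Il1b, Il1rn, Il18, Il18bp, Nlrp3, Pycard, Casp1, Casp4 and Gsdmd) from the 25700 gene identifiers of the count tables. All 10 were present. They were measured by bulk RNA-Seq in bone marrow–derived macrophages (BMDMs), which are macrophages grown in culture from the marrow of wild-type C57BL/6J mice aged 8 to 10 weeks. All cultures received recombinant M-CSF at 100 ng/ml. On day 3, the heme group was given 300 µM heme-albumin and the control group albumin alone, and cells were collected on day 7. Each group had 3 libraries, each from the macrophages of 1 mouse. These were plated cultures to which, beyond M-CSF and heme, the labels name no added stimulus, and the comparison asked how sustained heme exposure alters the macrophage transcriptome.

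Interleukin 1α and interleukin 1β signal through the same receptor, and the interleukin 1 receptor antagonist, encoded by Il1rn, occupies that receptor without signaling. Interleukin 1β and interleukin 18 are made as inactive precursors. In an inflammasome, a sensor such as NLRP3 binds the adaptor ASC (Pycard), which recruits and activates caspase-1 (Casp1). Caspase-1 cleaves both precursors as well as gasdermin D (Gsdmd), whose released fragment forms pores in the plasma membrane, and the mouse caspase encoded by Casp4 cleaves gasdermin D after binding bacterial lipopolysaccharide. In macrophages, Il1b and Nlrp3 mRNA are well known to be induced by microbial products, so mRNA levels describe the supply of these components and not their activation.

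Heme-treated BMDMs had more Il1a, Casp1, Il18 and Il1rn mRNA and less Il18bp mRNA than control BMDMs. Nlrp3, Pycard, Casp4 and Gsdmd did not pass the test, and Il1b was close to undetected in both groups. Of the 9 members with enough counts to be tested, 4 were called higher and 1 lower, or 3 and 2 when libraries were scaled by size alone (edgeR quasi-likelihood test, Benjamini-Hochberg–adjusted p under 0.05 over 12433 tested genes). Across all tested genes, 62.5% were called, 31.7% higher and 30.8% lower, so the share of members called was near the background and is not a result about these genes as a group. The median log2 fold change was 0.31 over the 9 tested members and 0.0041 over all tested genes. For 5 of the 9 members the ranges of both groups were separate, compared with 68.8% of all tested genes.

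Total counts ranged from 27201038 to 32994595 per library, at which 3 counts correspond to 0.0829 to 0.119 CPM, the gene's count scaled to a common library size after trimmed mean of M-values (TMM) normalization. Hmox1, the heme-degrading enzyme induced by heme, rose from 584 ± 57.7 to 20999 ± 695 CPM (SD, n = 3). All 10 macrophage markers were measured, and their summed level was 32281 to 38122 CPM in control and 36628 to 39903 CPM in heme libraries. Without scaling beyond library size, the median of all tested genes shifted to -0.22 on the log2 scale, with 2580 genes called higher and 5814 lower. Because the samples were bulk cultures, a change in the number of cells of one type and a change in RNA per cell cannot be told apart.

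The promoters of Il1a and Il1b are shown because Il1a was the highest-fold member called and Il1b the member of lowest level. These neighboring genes on chromosome 2 encode the cytokines of the same receptor. Il1b was added after its values were seen. Each sequence is the RefSeq window of 300 bases on the minus strand of GRCm38.p6, from 250 bases before the gene start to 50 bases after it, printed 5′ to 3′ on the gene's strand. The Il1a window lies at chr2:129309923-129310222 and the Il1b window at chr2:129371090-129371389. Capitals mark a TATAAA match and, in Il1a, a match to the AP-1 motif TGANTCA.
Il1a: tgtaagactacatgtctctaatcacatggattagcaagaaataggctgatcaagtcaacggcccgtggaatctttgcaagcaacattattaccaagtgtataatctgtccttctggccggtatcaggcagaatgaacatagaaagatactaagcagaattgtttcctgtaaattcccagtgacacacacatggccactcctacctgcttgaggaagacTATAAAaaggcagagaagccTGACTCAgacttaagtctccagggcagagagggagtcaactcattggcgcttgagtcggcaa
Il1b: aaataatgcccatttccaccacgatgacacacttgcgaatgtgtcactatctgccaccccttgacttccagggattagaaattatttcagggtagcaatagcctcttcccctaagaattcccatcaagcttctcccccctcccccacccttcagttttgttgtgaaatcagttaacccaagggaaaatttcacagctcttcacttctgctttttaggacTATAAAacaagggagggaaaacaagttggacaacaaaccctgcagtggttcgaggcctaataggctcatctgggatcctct
The TATAAA match began 32 bases before the start in Il1a and 31 bases before it in Il1b, and 13.6% of 32851 mouse promoter windows held such a match. The AP-1 match began 12 bases before the start of Il1a, was absent from the Il1b window, and was found in 7.81% of all windows. Neither window held the antioxidant response element core TGACNNNGC, the motif of NRF2 with small MAF proteins, which 12.4% of windows held, or the NF-κB consensus, which 8.46% held. Both strands were searched for each motif, and an AP-1 match with C as its free base, when followed by GC, is also an antioxidant response element core match. Of the 9 members with a window in the RefSeq table, Nlrp3 alone held an antioxidant response element core, 11 bases after one of its starts, and Casp4 and Nlrp3 held NF-κB consensus matches. Besides Il1a, Il1rn held an AP-1 match, beginning 141 bases before one of its starts, and Il1rn and Il18 also held TATAAA matches. These are matches of letters within short windows and not measured binding sites.

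Among the agonist cytokines, Il1a (chr2:129299610-129309972) was low and rose in heme. Control libraries held 8, 13 and 4 reads of Il1a, and heme libraries held 27, 29 and 33. The corresponding levels were 0.221, 0.388 and 0.122 CPM in control and 0.909, 1.15 and 1.21 CPM in heme, so that the lowest heme library lay above the highest control library. The log2 fold change of Il1a was 2.13 (SE 0.36, 95% CI 1.32 to 2.95, adjusted p = 0.000655 by edgeR), and this change was larger in size than that of 93.5% of the tested genes. The noncoding gene Gm14023 overlaps 222 exonic bases of Il1a on the opposite strand and was not in the count tables, and whether counting used strand is not given in the sources used here.

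Il1b (chr2:129364570-129371139), the best known product of inflammasome activation, showed no comparable rise. Control libraries held 5, 2 and 3 counts and heme libraries held 0, 1 and 0 counts, too few for the test. Summed over libraries, these were 10 counts against 1, a ratio of control to heme of 8.03 with an exact 95% interval of 1.14 to 349 that covers counting error only. The highest single Il1b level was 0.138 CPM in a control library, and in heme every library was under the level of 3 counts.

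Il18 (chr9:50554827-50581840), which unlike Il1b is transcribed in unstimulated macrophages, rose modestly. Its levels were 3.84, 4.30 and 3.52 CPM in control and 6.13, 5.89 and 5.87 CPM in heme, without overlap. The log2 fold change of Il18 was 0.62 (SE 0.13, 95% CI 0.33 to 0.90, adjusted p = 0.00207 by edgeR).

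The antagonists moved in opposite directions. Il18bp (chr7:102014885-102018690), which encodes the secreted protein that binds and neutralizes interleukin 18, had 12.6, 18.4 and 15.9 CPM in control and 9.60, 10.7 and 10.3 CPM in heme. All heme libraries lay below all control libraries, and the log2 fold change of Il18bp was -0.62 (SE 0.14, 95% CI -0.93 to -0.31, adjusted p = 0.00348 by edgeR). Il18bp shares 80 exonic bases with Numa1, a mitotic spindle gene on the opposite strand that had 28409 counts in all against 2431 for Il18bp and itself fell by 0.41 on the log2 scale (SE 0.088, adjusted p = 0.00253 by edgeR). The part of Numa1 reads in the Il18bp result was not tested.

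Il1rn (chr2:24336853-24351494) had 12.4, 5.97 and 9.20 CPM in control and 14.2, 15.6 and 13.4 CPM in heme. The groups did not overlap, but the control libraries spread over a wide range, with replicate 2 lowest. The log2 fold change of Il1rn was 0.65 (SE 0.22, 95% CI 0.16 to 1.13, adjusted p = 0.0253 by edgeR), and the estimate was 0.40 without control replicate 2. The call was lost without control replicate 3 (0.64, adjusted p = 0.0624), heme replicate 1 (0.66, adjusted p = 0.0613) or heme replicate 2 (0.59, adjusted p = 0.0807), and when libraries were scaled by size alone (0.42, adjusted p = 0.119).

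Ratios of 2 mRNAs within a library, computed per kilobase of exon, do not depend on scaling between libraries. The ratio of Il18bp to Il18 was 1.12, 1.46 and 1.54 in control and 0.534, 0.620 and 0.598 in heme. Per kilobase of exon, Il18bp thus stood above Il18 in every control library and below it in every heme library. This crossing depends on the exon lengths used, 3026 bases for Il18bp and 1031 for Il18. In CPM, Il18bp was above Il18 in every library of both groups. The ratio was 2.33-fold lower in heme, a log2 difference of -1.22 (exact two-sided permutation test, p = 0.1, adjusted p = 0.125 over 5 ratios, n = 3 per group), and 0.1 is the smallest p that 3 against 3 libraries allow. The ratio of Il1rn to Il1a, chosen after the low counts of Il1b were seen, was 19.97, 5.49 and 26.8 in control and 5.59, 4.87 and 3.93 in heme. These ranges overlapped through control replicate 2 (log2 difference -1.59, exact two-sided permutation test, p = 0.2, adjusted p = 0.2, n = 3 per group), and without that library the log2 difference was -2.29.

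**Figure D1:**
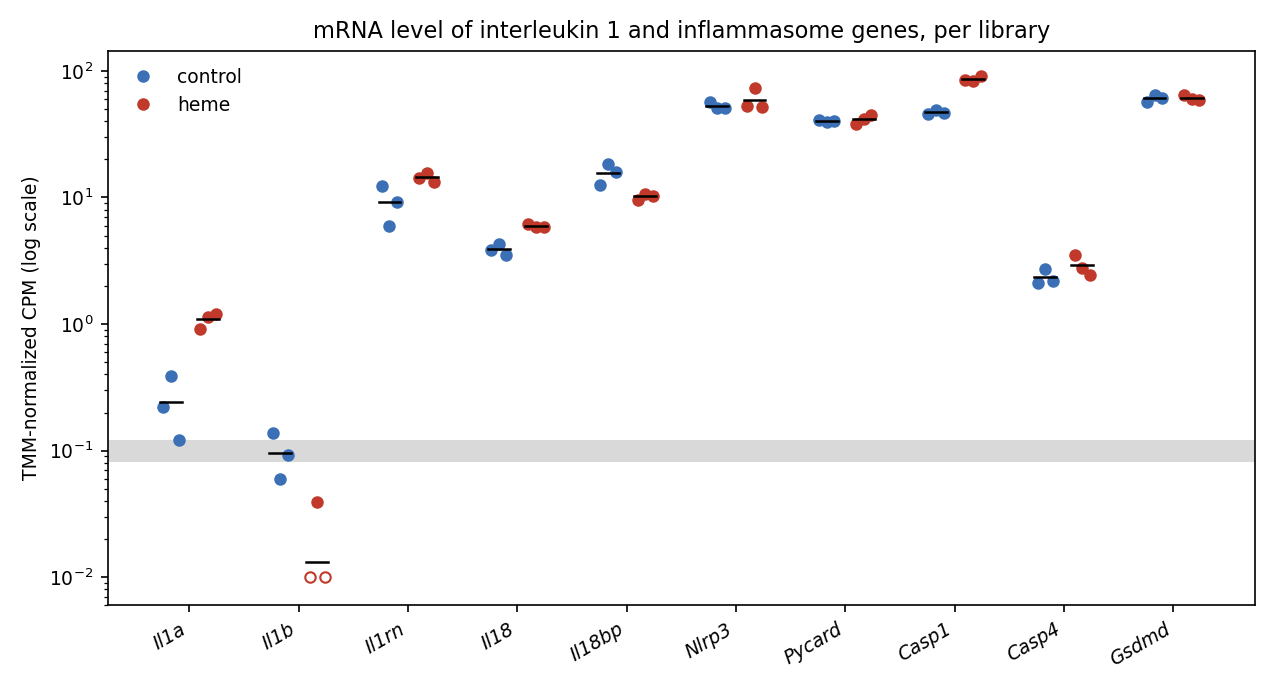
Level of each of the 10 genes in each library, as TMM-normalized CPM on a log axis; points are libraries (3 control in blue, 3 heme in red), black lines are group means, the grey band is the level of 3 counts (0.0829 to 0.119 CPM), and open circles drawn at the bottom are libraries with 0 counts. The points of Il1a, Il1rn, Il18 and Casp1 in heme lie above all control points, those of Il18bp below, and Il1b lies at or under about 0.138 CPM throughout.

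Of the inflammasome core, Casp1 (chr9:5298517-5307265) was the gene that changed. Its levels were 45.3, 49.2 and 46.5 CPM in control and 85.0, 83.1 and 91.5 CPM in heme, with a gap between the groups much wider than the spread within either. The log2 fold change of Casp1 was 0.88 (SE 0.067, 95% CI 0.73 to 1.03, adjusted p = 3.18e-06 by edgeR), and it ranged from 0.84 to 0.91 when each library was left out in turn.

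Nlrp3 (chr11:59541568-59566956), the sensor, had 56.3, 50.8 and 51.1 CPM in control and 52.7, 73.4 and 51.7 CPM in heme. The groups overlapped, and heme replicate 2 stood above the other 5 libraries. The log2 fold change of Nlrp3 was 0.17 (SE 0.13, 95% CI -0.12 to 0.45, adjusted p = 0.275 by edgeR), and it was -0.013 without heme replicate 2.

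Pycard (chr7:127989708-127993867), the adaptor, had 40.6, 39.3 and 39.9 CPM in control and 38.4, 41.8 and 44.6 CPM in heme. These ranges overlapped, with a log2 fold change of 0.060 (SE 0.071, 95% CI -0.10 to 0.22, adjusted p = 0.484 by edgeR). Gm45205, on the opposite strand, shares 485 exonic bases with Pycard and had 3550 counts in all against 7507 for Pycard, with a log2 fold change of 0.082 (adjusted p = 0.450 by edgeR).

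Gsdmd (chr15:75862327-75867408), the pore-forming substrate, had 57.2, 64.8 and 61.2 CPM in control and 64.4, 60.1 and 59.2 CPM in heme. The groups overlapped fully, and the log2 fold change of Gsdmd was 0.0044 (SE 0.070, 95% CI -0.15 to 0.16, adjusted p = 0.961 by edgeR). When libraries were scaled by size alone, it was -0.22 (adjusted p = 0.0157 by edgeR), close to the shift of all tested genes under that scaling.

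Casp4 (chr9:5308828-5336783), which adjoins Casp1 on chromosome 9, was a low-abundance transcript in both groups. It had 2.13, 2.72 and 2.20 CPM in control and 3.50, 2.77 and 2.46 CPM in heme, with overlap between control replicate 2 and heme replicate 3. The log2 fold change of Casp4 was 0.31 (SE 0.19, 95% CI -0.11 to 0.74, adjusted p = 0.174 by edgeR).

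Ratios of Casp1 to the other core transcripts within a library, in pairs chosen after the values were seen, restate the Casp1 difference on a scale free of normalization between libraries. The ratio of Casp1 to Gsdmd per kilobase was 1.26, 1.21 and 1.21 in control and 2.10, 2.20 and 2.45 in heme, 1.83-fold higher. The ratio of Casp1 to Pycard was 1.77-fold higher and that of Casp1 to Nlrp3 1.66-fold higher in heme. These 3 ratios are given as a description, with no support drawn from a test.

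**Figure D2:**
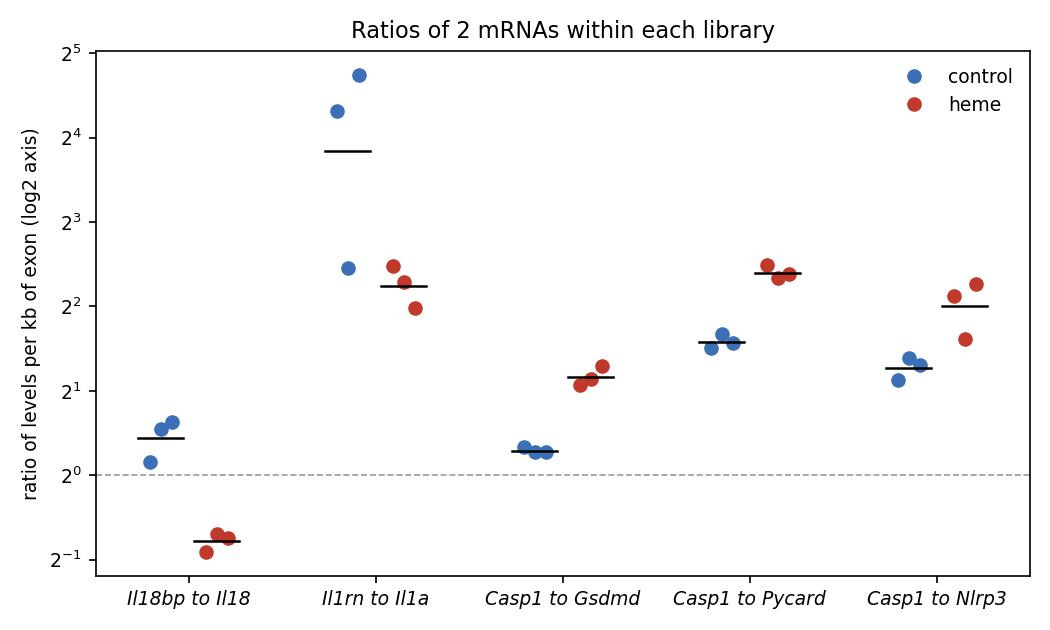
Ratio of 2 mRNAs within each library, from levels per kilobase of exon on a log2 axis; points are libraries (control in blue, heme in red), black lines are geometric means, and the dashed line marks equal levels. The Il18bp to Il18 ratios lie above 1 in control and below 1 in heme, and the 3 ratios of Casp1 are higher in every heme library.

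As levels in CPM per kilobase of exon, the order in control BMDMs was Casp1 (31.4 ± 1.33), Gsdmd (25.7 ± 1.60), Nlrp3 (12.998 ± 0.765), Pycard (10.5 ± 0.174), Il18bp (5.17 ± 0.973), Il18 (3.77 ± 0.380), Il1rn (1.66 ± 0.579), Casp4 (0.633 ± 0.0863), Il1a (0.123 ± 0.0680) and Il1b (0.0506 ± 0.0207; SD, n = 3 for each). Neighbors in this order did not overlap, apart from Il18bp with Il18 and Il1a with Il1b. In heme BMDMs, the order was the same except that Il18 (5.78 ± 0.141) stood above Il18bp (3.37 ± 0.185), and no neighbors overlapped. Casp1 reached 57.8 ± 2.94, and Il1a at 0.551 ± 0.0803 remained the lowest member after Il1b. Casp1, Gsdmd, Nlrp3 and Pycard thus headed the order in both groups, while Casp4 stood next above Il1a. The order depends on the exon lengths used, such as 3800 bases for Pycard and 1497 for Casp1. In CPM these genes also came first, but in control as Gsdmd (61.1), Nlrp3 (52.7), Casp1 (47.0) and Pycard (39.9). In CPM, Il1rn lay above Il18 in both groups (9.18 against 3.88 in control, 14.4 against 5.96 in heme), and above Il18bp in heme (10.2).

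The wider family adds further ligands and the receptors. Of 6 other ligands of the interleukin 1 family, 5 (Il33, Il1f5, Il1f6, Il1f8 and Il1f10) had 0 counts in every library. Il1f9, which encodes interleukin 36γ, had 1.05, 0.955 and 1.01 CPM in control and 74.5, 64.0 and 72.0 CPM in heme. The groups were far apart, and the log2 fold change of Il1f9 was 6.12 (SE 0.11, adjusted p = 9.77e-10 by edgeR). In CPM, Il1f9 thus lay above every other cytokine gene of the family that was measured in heme BMDMs.

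Of 8 receptor genes, 6 could be tested. Of these, 4 were called higher and 2 lower, beside 31.7% higher and 30.8% lower among all tested genes. Il1r1, the signaling receptor of interleukin 1, had 0.221, 0.269 and 0.673 CPM in control and 2.83, 2.33 and 1.91 CPM in heme, a log2 fold change of 2.61 (SE 0.36, adjusted p = 0.000165 by edgeR). Control replicate 3 stood above the other control libraries, and without it the log2 fold change of Il1r1 was 3.25. Il1rl2, the interleukin 36 receptor, had 0.635, 1.07 and 0.917 CPM in control and 2.93, 3.71 and 3.34 CPM in heme, a log2 fold change of 1.92 (SE 0.22, adjusted p = 5.07e-05 by edgeR). Both receptors thus rose without overlap from low control levels.

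Il18rap, the accessory chain of the interleukin 18 receptor, had 1.60, 1.28 and 0.948 CPM in control and 8.89, 8.45 and 9.50 CPM in heme, a log2 fold change of 2.80 (SE 0.18, adjusted p = 9.88e-07 by edgeR). Its partner Il18r1, the chain that binds interleukin 18, had only 4 counts in control and 5 in heme over 3 libraries each. Il1rap, the shared accessory chain, rose from 11.2 ± 2.00 to 15.4 ± 0.514 CPM (log2 fold change 0.47, SE 0.13, adjusted p = 0.00930 by edgeR), a call that was lost when libraries were scaled by size alone (0.24, adjusted p = 0.133).

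Both receptor genes called lower were of low abundance. Sigirr, an inhibitory receptor of the family, fell from 1.81 ± 0.347 to 0.690 ± 0.1303 CPM (log2 fold change -1.38, SE 0.25, adjusted p = 0.000907 by edgeR). Il1rl1, the interleukin 33 receptor, fell from 1.53 ± 0.522 to 0.785 ± 0.144 CPM (log2 fold change -0.98, SE 0.30, adjusted p = 0.0169 by edgeR), and its call was lost without control replicate 1 (-0.69, adjusted p = 0.0532), heme replicate 1 (-0.87, adjusted p = 0.0692) or heme replicate 3 (-0.93, adjusted p = 0.0597). Il1r2, the decoy receptor, was too low for the test, with 12 counts in control and 25 in heme over 3 libraries each.

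**Figure D3:**
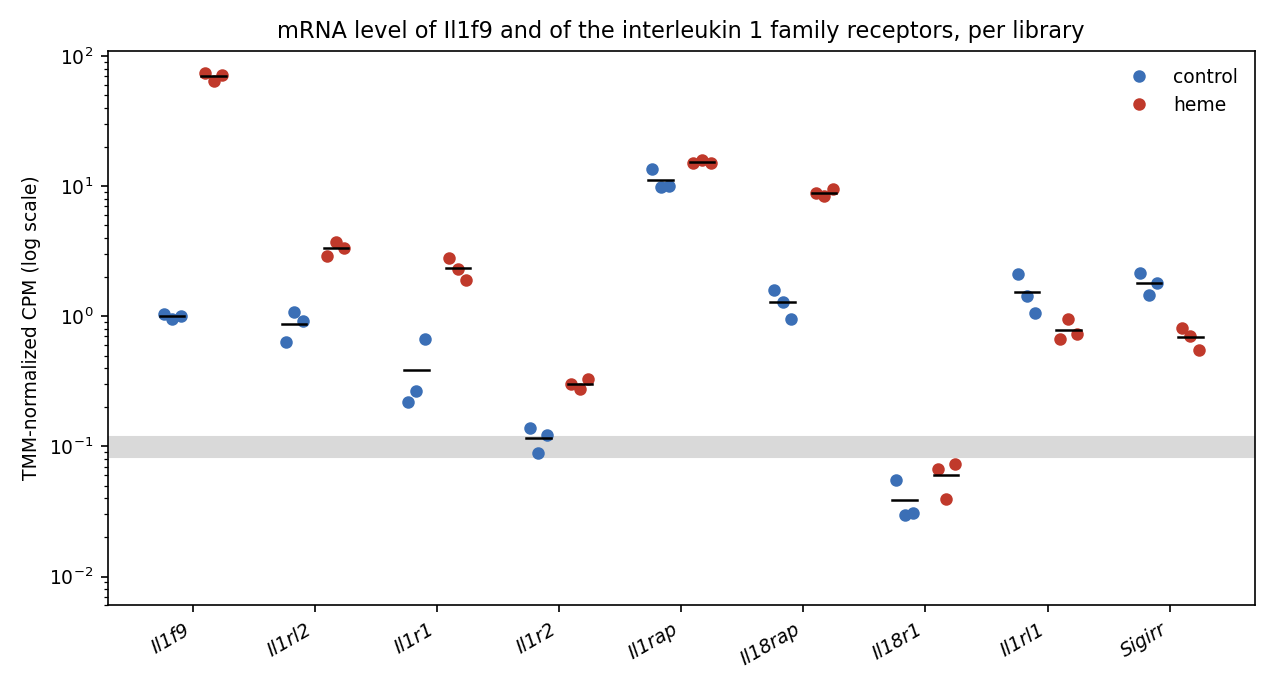
Level of Il1f9 and of 8 interleukin 1 family receptor genes in each library, as TMM-normalized CPM on a log axis; points are libraries (3 control in blue, 3 heme in red), black lines are group means, and the grey band is the level of 3 counts. Il1f9 lies near 1 CPM in control and at 64.0 to 74.5 CPM in heme, and Il18r1 lies under the band in all libraries.

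Below the receptors, 15 genes of MyD88 and IRAK signaling were tested. Of them, 1 was called higher, 5 lower and 9 not called, or 1, 12 and 2 when libraries were scaled by size alone. The shares among all tested genes were 31.7% higher and 30.8% lower. Myd88, the adaptor of the receptors, fell from 63.1 ± 5.33 to 45.8 ± 3.60 CPM (log2 fold change -0.46, SE 0.085, adjusted p = 0.00107 by edgeR). Peli1, a ubiquitin ligase of the pathway, and Tab1, a partner of the kinase TAK1, fell by 0.65 (SE 0.097) and 0.61 (SE 0.085) on the log2 scale. Ikbkg, the regulatory subunit of the IκB kinase, was the gene called higher, from 89.3 ± 3.75 to 169 ± 4.89 CPM (log2 fold change 0.92, SE 0.061, adjusted p = 1.41e-06 by edgeR).

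Of 14 other inflammasome sensor and related genes, Card8 had no match in the tables, and Nlrp6 and Nlrp12 had 0 counts throughout. Of the 11 tested, 6 were called higher, 1 lower and 4 not called, or 3, 3 and 5 when libraries were scaled by size alone. Among all tested genes, 31.7% were called higher and 30.8% lower. Mefv, which encodes pyrin, the sensor of RhoA inactivation, had 0.0276, 0.358 and 0.459 CPM in control and 5.08, 7.90 and 4.88 CPM in heme. Its log2 fold change was 4.41 (SE 0.44, adjusted p = 2.14e-05 by edgeR), with a single count in control replicate 1.

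Aim2, the sensor of cytosolic DNA, rose from 29.0 ± 3.13 to 44.4 ± 3.28 CPM (log2 fold change 0.61, SE 0.092, adjusted p = 0.000315 by edgeR). Nlrc4, the core of the flagellin and type III secretion inflammasome, rose from 15.9 ± 0.482 to 20.8 ± 1.18 CPM (log2 fold change 0.39, SE 0.079, adjusted p = 0.00202 by edgeR), a call lost when libraries were scaled by size alone (0.16, adjusted p = 0.0950). Among its ligand-binding partners, Naip2 had a log2 fold change of 1.17 (SE 0.066) and Naip6 of -0.39 (SE 0.099), and the Naip genes are near copies whose reads may have been divided uncertainly.

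Of 14 NLRP3 regulators, 9 were called lower, 1 higher and 4 not called, beside 30.8% lower and 31.7% higher among all tested genes, or 10, 0 and 4 when libraries were scaled by size alone. Gbp5, an interferon-inducible GTPase that promotes NLRP3 assembly, had 1.30, 1.25 and 2.29 CPM in control and 0.0337, 0.119 and 0.147 CPM in heme, a log2 fold change of -3.99 (SE 0.48, adjusted p = 6.91e-05 by edgeR). Trim30a, also interferon inducible and described as a negative regulator of NLRP3, fell by 1.86 on the log2 scale (SE 0.13), and Gbp2 fell by 1.68 (SE 0.22). The genes that fell most in this list thus included one described as an activator of NLRP3 and one described as an inhibitor.

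P2rx7, the ATP-gated channel that triggers NLRP3, had 59.0, 88.4 and 66.7 CPM in control and 35.0, 36.3 and 34.1 CPM in heme, a log2 fold change of -1.02 (SE 0.13, adjusted p = 0.000111 by edgeR). Nek7, the kinase that binds NLRP3 during activation, fell from 143 ± 1.96 to 108 ± 9.26 CPM (log2 fold change -0.41, SE 0.072, adjusted p = 0.000873 by edgeR). Txnip was called lower at the margin (-0.37, SE 0.14, adjusted p = 0.0456 by edgeR), with control replicate 2 at 878 CPM and the other control libraries at 558 and 621. Its log2 fold change was -0.17 without that library (adjusted p = 0.0723), and adjusted p was 0.0992, 0.110 and 0.113 without heme replicates 1, 2 and 3. Pstpip1, which binds pyrin, was the gene called higher (0.18, SE 0.069, adjusted p = 0.0490 by edgeR), and its estimate was -0.046 when libraries were scaled by size alone. Its call was lost without every library in turn other than control replicate 2 (adjusted p up to 0.144), and under median-of-ratios scaling (adjusted p = 0.0509), upper quartile scaling (0.0931), no filter on low counts (0.0828) and DESeq2 (0.0759).

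Of the other caspase, gasdermin and membrane rupture genes, 13 of 15 were tested, with 6 called higher, 6 lower and 1 not called. Over all tested genes, the shares were 31.7% higher and 30.8% lower. Gsdma, another gasdermin, had 0 counts in control and 33 over the heme libraries, at least 13.7-fold higher if 3 counts are taken as the floor for the control group. Serpinb1a, an inhibitor of neutrophil proteases and of inflammatory caspases, rose from 0.469 ± 0.264 to 3.35 ± 0.713 CPM (log2 fold change 2.80, SE 0.33, adjusted p = 5.87e-05 by edgeR). Ripk3, the kinase of necroptosis, had 18.7, 13.6 and 15.7 CPM in control and 58.8, 54.6 and 58.5 CPM in heme, a log2 fold change of 1.84 (SE 0.11, adjusted p = 6.00e-07 by edgeR).

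Casp6 fell by 0.99 (SE 0.12) and Irf2, a transcription factor known to drive Gsdmd, by 0.47 (SE 0.075) on the log2 scale. Ninj1, which executes plasma membrane rupture after gasdermin pores form, fell from 560 ± 75.0 to 406 ± 18.5 CPM (log2 fold change -0.47, SE 0.098, adjusted p = 0.00245 by edgeR). Casp8, the apical caspase of extrinsic apoptosis, had 59.2 ± 1.07 CPM in control and 55.6 ± 4.50 CPM in heme (log2 fold change -0.092, SE 0.072, adjusted p = 0.293 by edgeR).

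**Figure D4:**
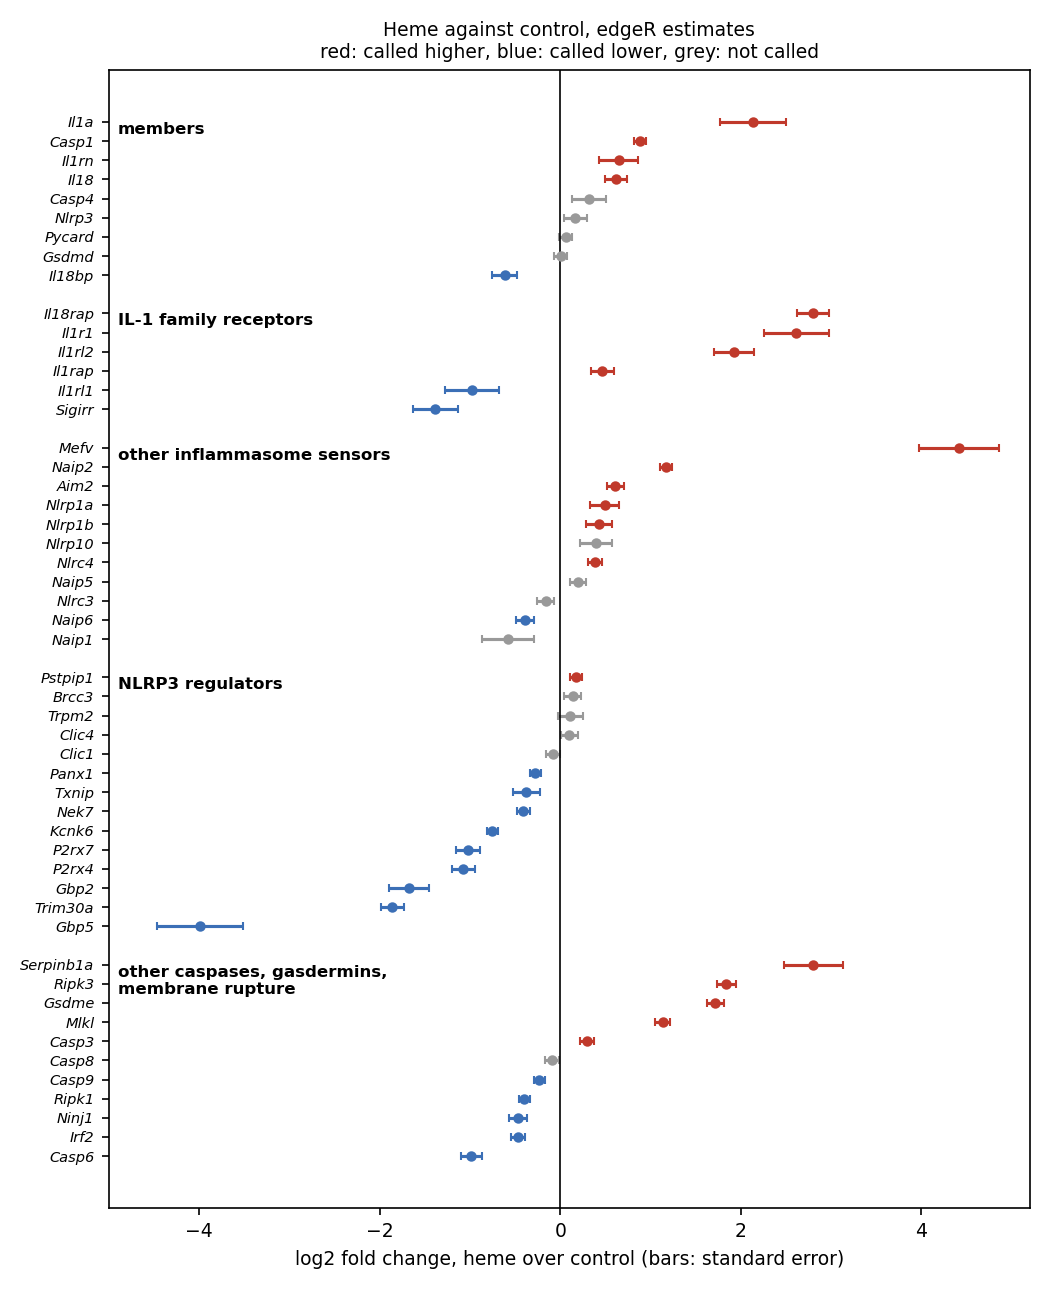
Log2 fold change of heme over control (x axis) for the tested members and genes of 4 related lists, as edgeR estimates with their standard errors; red points were called higher, blue points lower and grey points not called, and Gsdma, with 0 counts in control, is left out. Casp1, at 0.88, is separated from Nlrp3, Pycard and Gsdmd, which lie within 0.17 of 0.

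By the rule of smallest root mean square difference in centered log2 CPM over the 6 libraries, among 8949 well-expressed genes, the patterns nearest to that of Il1a were those of Matk (0.26), Mcf2l (0.33) and Ier3 (0.33). Those nearest to Il18bp were Tpcn1 (0.049), Nr1d2 (0.052) and Deptor (0.054). The distances of both members are not comparable, since Il1a had 4 to 33 counts per library and Il18bp 271 to 618.

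Most tested markers of neutrophils and of monocytes were called higher in heme. The summed level of 13 neutrophil markers was 58.2 to 117 CPM in control and 130 to 177 CPM in heme. Of the 10 tested, 9 were called higher and 1 lower, and Elane had 0 counts in every control library. Csf3r, the marker called lower, made up most of the control sums (50.8, 106 and 68.9 CPM) and fell to 35.5 CPM in heme. Mpo rose from 1 count over the control libraries to 1813 over the heme libraries. The summed level of 10 monocyte markers was 93.6 to 171 CPM in control and 373 to 455 CPM in heme. Of these, 8 were called higher, 1 lower and 1 not called. F13a1, the marker not called, made up most of the control sums (130, 111 and 48.1 CPM). The part of these markers in the results for Il1a, Il1rn, Il1f9, Mefv and Serpinb1a was not tested. Of 10 macrophage markers, 1 was called higher, 7 lower and 2 not called. The calls in these marker lists stand beside 31.7% higher and 30.8% lower among all tested genes.

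The other marker lists had lower summed levels. Summed dendritic cell markers were 15.5 to 17.6 CPM in control and 33.6 to 41.6 CPM in heme. T and NK cell markers summed to 3.90 to 7.37 CPM in control and 0.830 to 1.14 CPM in heme, with Cd3e and Cd8a at 0 throughout, and B cell markers to 1.65 to 2.02 CPM in control and 0.477 to 0.977 CPM in heme. Mast cell and basophil markers summed to 0.537 to 0.917 CPM in control and 1.08 to 2.20 CPM in heme, with Tpsb2 at 0. Erythroid markers summed to 0.298 to 0.398 CPM in control and 0.948 to 1.55 CPM in heme, with Hba-a2 at 0, and stromal markers to 0.249 to 0.597 CPM in control and 1.10 to 1.42 CPM in heme, with Dcn at 0. None of these 6 summed levels overlapped between the groups, and their part in the results was not tested. Several sums came mostly from 1 gene. Itgax held most of the dendritic cell sum (15.2 CPM in control, 37.4 CPM in heme). In control, Cd4 held most of the T and NK sum (5.46 CPM) and Cd79b most of the B cell sum (1.70 CPM). Hbb-bt held most of the erythroid sum in heme (0.958 CPM).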

How the data were processed

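RNA from 3 control and 3 heme cultures was made into stranded libraries. Per the labels, the authors deposited 1 table of raw read counts per gene and library, and the submitters' processing notes name STAR 2.7.0, featureCounts and GRCm38.p5; the strand setting is not given in the sources used here. Gene symbols were matched for 25664 of the 25700 identifiers, and the 36 others held 0.0481% of counts.

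All genes were fitted together with edgeR 4.0.16 in R 4.3.3 (filterByExpr with a minimum count of 10, TMM scaling, quasi-likelihood test, group as the only term), and calls were made at a Benjamini-Hochberg–adjusted p under 0.05. Standard errors were taken from the estimate and its F statistic. CPM values used the counts in tested genes times the TMM factor. Exon lengths came from GENCODE on GRCm38, as the union of all exons annotated to a gene. On data simulated from these libraries (12330 genes), the fit called 44 of 50 genes changed by 1 on the log2 scale, 32 of 50 changed by 0.5 and 4 of 12132 unchanged genes. There, 12132 of the 12330 genes were unchanged, whereas 62.5% of the tested genes were called in the measured libraries. How often unchanged genes are called when so many genes differ was not tested. Libraries within a group differed by more than counting noise, so none was a copy of another library's counts.

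The members and lists were chosen with earlier results of these data known. In each list the text names up to 3 called genes with the largest rise and up to 3 with the largest fall, plus Il1r1, Il1r2, Il1rap, Myd88, Nek7, Txnip, P2rx7, Aim2, Nlrc4, Casp8 and Ninj1, and nearest genes for the members that rose and fell most; any others were chosen after their values were seen. The promoter rule (called, absolute log2 fold change of at least 1) gave Il1a. Alternatives changed the scaling, filter, test (DESeq2 1.42.0, limma-voom 3.58.1) or libraries. The planned ratios with Il1b could not be computed because 2 heme libraries held 0 counts. Protein sequences were not used here. Results for 3 genes of the lists are not reported here, though the counts of their lists include them.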

Additional observations from a re-analysis of the deposited data

How the results depend on the processing

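Of the 10 genes, 4 were called higher and 1 lower under median-of-ratios or upper quartile scaling, without the filter on low counts, with DESeq2, with limma-voom and without the 20 most abundant genes in the scaling. With library sizes as the only scaling, 3 were called higher and 2 lower, since Gsdmd turned from 0.0044 to -0.22 and was called lower while Il1rn lost its call; outside the 10 genes, Pstpip1 turned to -0.046. Leaving out each library in turn gave 3 to 4 members called higher and 1 lower, the losses being those of Il1rn. With the replicate number as a block (replicate block), 4 members were called higher and 1 lower, and 3671 and 3493 of all tested genes. In the list of NLRP3 regulators the block left 8 called lower and 0 higher, since Txnip (-0.35, adjusted p = 0.0513 by edgeR) and Pstpip1 (0.18, adjusted p = 0.0754) lost their calls, while the other lists kept their counts. Same-numbered libraries deviated together in no pair (correlations -0.0998, -0.142 and -0.0683), so the numbers were not taken to pair the samples. The log2 difference of the Il18bp to Il18 ratio ranged from -1.37 to -1.13 when libraries were left out. The planned ratios of Il1rn to Il1b and of Il1b to Il1a were not run because Il1b had 0 counts in 2 heme libraries. With 3 libraries per group, p-values rest on the spread between these cultures, and depth limits Il1b, Il18r1 and Il1r2 most.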

Other observations

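Beside Ripk3, 2 further genes of lytic cell death were chosen after their values were seen. Both were called higher, whereas Ripk1 of the same list was called lower (log2 fold change -0.40, SE 0.064, adjusted p = 0.000490 by edgeR). Of the 13 tested genes in that list, 6 were called higher and 6 lower, beside 31.7% higher and 30.8% lower among all tested genes. Mlkl, the membrane-disrupting substrate of RIPK3, had 23.0, 19.9 and 22.2 CPM in control and 48.4, 44.5 and 50.1 CPM in heme, a log2 fold change of 1.13 (SE 0.080, adjusted p = 2.02e-06 by edgeR). Gsdme, a gasdermin cleaved by caspase-3, had 13.8, 10.5 and 12.8 CPM in control and 40.8, 40.6 and 40.8 CPM in heme, a log2 fold change of 1.72 (SE 0.099, adjusted p = 5.13e-07 by edgeR). Neither Mlkl nor Gsdme overlapped between the groups, which was also true of 68.8% of all tested genes.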
